A study of Homo sapiens with 8 samples.

Results

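The interferon regulatory factors IRF1, IRF2, IRF3, IRF4, IRF5, IRF7, IRF8 and IRF9 were followed in K562 cells after nuclear activation of a C/EBPα fusion protein. These 8 genes were read by every probe set of the array whose annotation listed 1 gene symbol, equal to that of a member, which gave 13 probe sets of 54675 in all and 8 genes of 19775. IRF4 and IRF5 had 3 probe sets each, IRF1 had 2 and the other 5 genes had 1. A further probe set that listed IRF9 together with another gene was left out.

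K562 is an established human cell line with erythroid features, derived from the blast phase of chronic myeloid leukaemia. All cells of the study stably carried p42-C/EBPa-ER, the full-length form of the granulocyte transcription factor C/EBPα joined to the oestrogen receptor, and grew in medium free of phenol red with charcoal-stripped serum. The first group was 4 samples of cells given 1 µM beta-estradiol for 6 h, which brings the fusion into the nucleus. The second group was 4 samples of cells given the ethanol vehicle for 6 h. No cells without the fusion are named in the labels, so the effect of estradiol alone cannot be told apart from that of the activated fusion. The sources used here name neither the promoter of the transgene nor whether the cells were 1 clone or a pool. The titles call the arrays biological replicates without saying what was separate, so a p-value reflects only how far these 8 samples spread, which may be technical.

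Interferon regulatory factors share a DNA-binding domain held by conserved tryptophans that recognises GAAA repeats, and they are best known for turning on interferons and the genes that interferons induce. IRF3, IRF5 and IRF7 wait in the cytoplasm until kinases downstream of pathogen sensors phosphorylate them, IRF9 carries the type I interferon signal to its target genes, and IRF1 and IRF2 compete for the same sites, IRF1 mainly as an activator and IRF2 mainly as a repressor. IRF4 and IRF8 bind DNA poorly alone, pair with the ETS factors SPI1 (PU.1) and SPIB, and steer B cells, dendritic cells and monocytes. In mice without Irf8, granulocytes accumulate.

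Some members are themselves targets of this circuit, and the promoter stretches that carry the known type of input are shown for IRF1 and IRF9. Both come from RefSeq promoters of build GRCh38.p14, which hold 250 bases before and 50 bases after each gene start, and both lie before the start. In the IRF1 stretch (chr5:132490864-132490923, minus strand) the capitals mark a match to TTCNNNGAA, the palindrome bound by STAT dimers, which begins 124 bases before the start.
IRF1: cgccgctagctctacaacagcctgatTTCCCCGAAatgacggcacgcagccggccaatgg
In the IRF9 stretch (chr14:24161180-24161239, plus strand) the capitals mark a match to TTCNNNGAA, 63 bases before the start, and one to AANNGAAA, a site bound by IRF proteins, 35 bases before it.
IRF9: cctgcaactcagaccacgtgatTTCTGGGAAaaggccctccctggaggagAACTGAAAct
Promoters were matched for 5 of the 8 genes, IRF1, IRF4, IRF5, IRF8 and IRF9, in 9 windows because IRF5 has 4 and IRF8 has 2 listed starts. Searched on both strands, TTCNNNGAA stood in 2 of the 9 windows, against 7.66% of 34943 promoters. AANNGAAA stood in 4 of the 9, those of IRF9, 1 of IRF5 and both of IRF8, which overlap and share a match, against 22.9% of all promoters. The tandem form of that site, 2 GAAA units with 2 bases between them, stood in 0 of the 9 (3.57% of all), and TTGCNNAA, a spelling of the C/EBP site, in 1 of the 9, that of IRF5 (10.5% of all). IRF2, IRF3 and IRF7 had no entry.

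Estradiol was set against vehicle to see which of these genes differed 6 h after the fusion was activated. Of the 8 genes, IRF2, the competitor of IRF1, rose 1.5-fold, and the other 7 did not pass the test, with log2 differences from −0.21 for IRF9 to 0.12 for IRF7. A gene was called when its Benjamini-Hochberg adjusted p in limma, over all 19775 genes, was below 0.05. The 1 call of 8 genes is 12.5%, against 17.9% of all genes called in either direction, 8.29% called higher and 9.6% called lower. IRF2 was also the 1 member that was called with at least a 1.5-fold change, against 2.91% of all genes. It lay just past that fold and was under it, though still called, without vehicle replicate 2 (log2 difference 0.490), without estradiol replicate 2 (0.550), with array weights (0.567) and with the 75th percentiles centred (0.577). These are bulk samples, in which fewer cells of a type and less RNA per cell cannot be told apart. Among the 13 probe sets, tested over all probe sets, 1 was called, 7.69%, against 10.4% of all probe sets in either direction, 5.32% higher, 5.06% lower and 2.29% called with at least a 1.5-fold change. The median difference was −0.01 over the 8 genes and −0.03 over all genes.

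**Figure D1:**
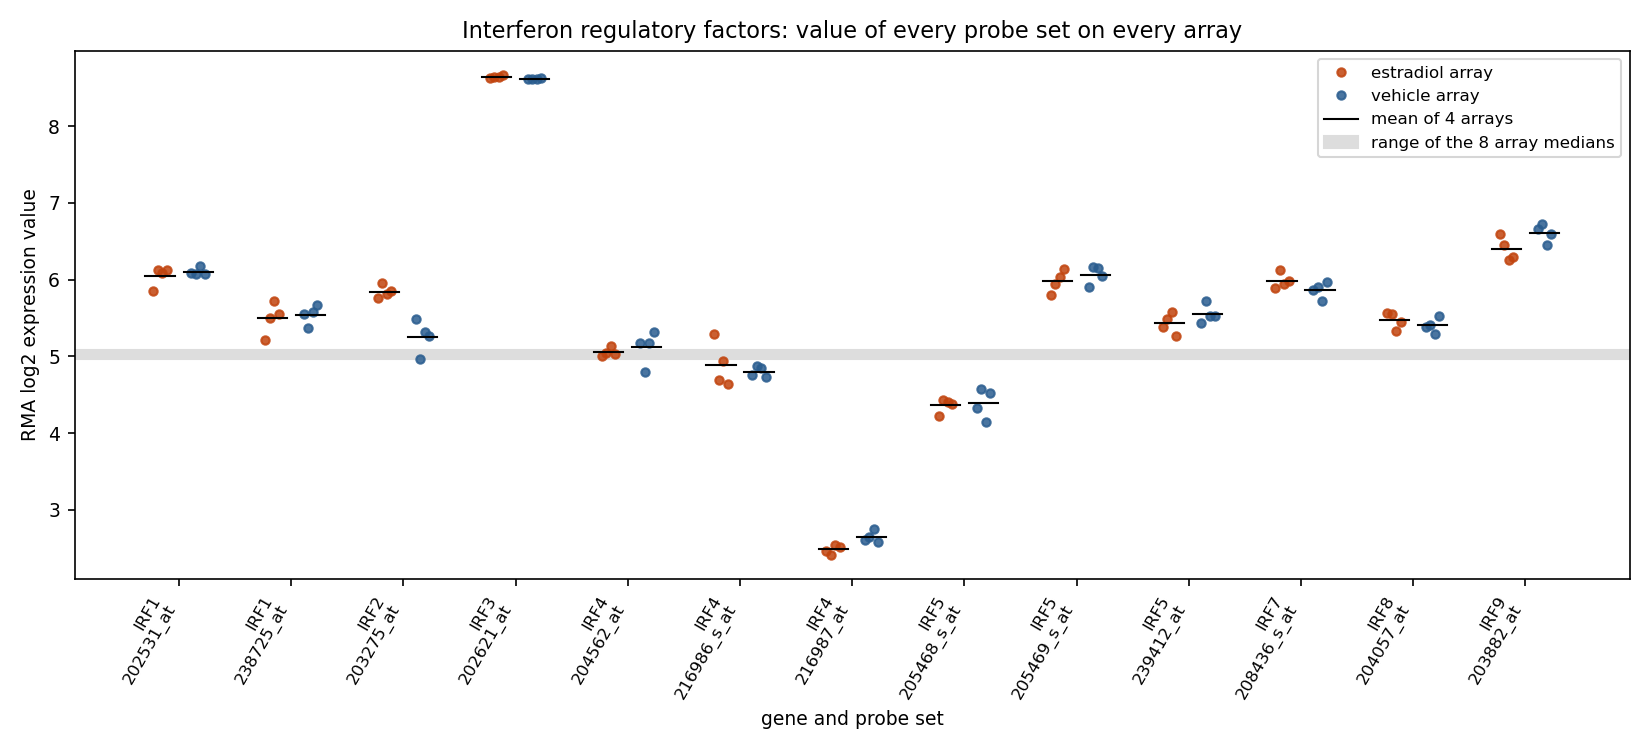
RMA log2 value of each of the 13 probe sets (horizontal axis) on each of the 4 estradiol arrays and the 4 vehicle arrays, with the mean of each group as a line and the range of the 8 array medians, 4.97 to 5.08, as a grey band. The IRF2 points with estradiol, 5.76 to 5.96, lie above all vehicle points, 4.97 to 5.48, while the groups of most other probe sets overlap.

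IRF2 had log2 values of 5.76, 5.96, 5.81 and 5.85 on the estradiol arrays, against 5.48, 4.97, 5.32 and 5.26 on the vehicle arrays. The groups did not overlap, the lowest estradiol value being above the highest vehicle value, which was also the case in 24.1% of all genes. The means were 5.84 ± 0.08 with estradiol and 5.26 ± 0.22 with vehicle (SD, n = 4 each), and the difference was 0.59 ± 0.10 on the log2 scale (moderated SE, limma adjusted p = 0.00333, 95% confidence interval 0.36 to 0.82). As a fold change this interval runs from 1.28 to 1.76. Among the 1639 genes called higher, 384 had a larger rise, and the median rise was 0.34. The vehicle spread came mostly from replicate 2, the lowest at 4.97, and this array also had the lowest upper quartile of all probe sets, 6.90 against 6.95 to 7.03 on the other 7. Without vehicle replicate 2 the IRF2 difference was 0.49 and remained called (limma adjusted p = 0.00196). IRF2 was read by 1 probe set, so no other probe set bears on its rise.

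The genes whose profile over the 8 arrays lay nearest to that of IRF2, by the root mean square difference of values centred on each gene's mean, were ZNF318 at 0.0373, HERPUD2 at 0.0402 and RP2 at 0.0436 on the log2 scale, out of 19774 genes compared. ZNF318 is a zinc finger protein, HERPUD2 a relative of the endoplasmic reticulum stress protein HERPUD1, and RP2 a GTPase-activating protein whose loss causes an X-linked retinal degeneration. Their differences of 0.56, 0.55 and 0.57 were chosen by their likeness to IRF2 and are given as a description. Each gene had more than 1 probe set, and the smallest difference among them was 0.26 for ZNF318, 0.37 for HERPUD2 and 0.11 for RP2. In the profiles compared, vehicle replicate 2 was the lowest array of each gene and vehicle replicate 1 the highest vehicle array, as for IRF2.

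**Figure D2:**
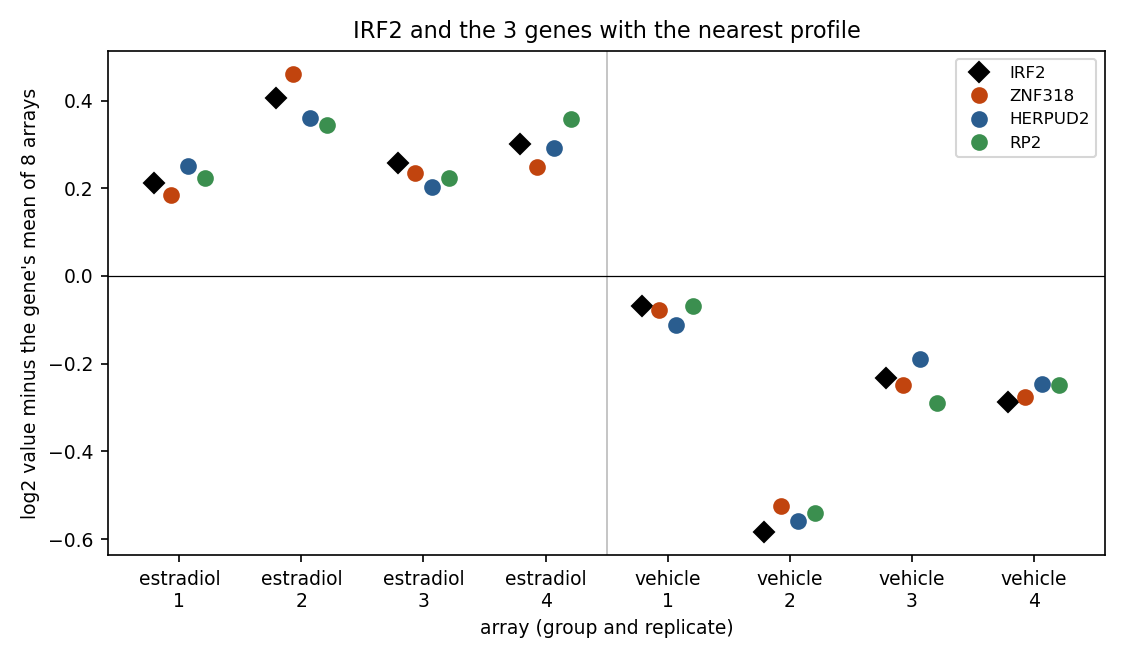
Log2 value minus the gene's mean over 8 arrays (vertical axis) for IRF2, ZNF318, HERPUD2 and RP2 on the 4 estradiol arrays (left) and the 4 vehicle arrays (right), 1 point per gene and array. All points with estradiol lie above 0 and all with vehicle below 0, with the lowest points on vehicle replicate 2.

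IRF1, the activator that IRF2 opposes, had log2 values of 5.85, 6.13, 6.09 and 6.12 with estradiol, against 6.08, 6.08, 6.17 and 6.08 with vehicle. The groups overlapped, and estradiol replicate 1 stood below all other arrays. The difference was −0.05 ± 0.07 (SE, limma adjusted p = 0.691), with an interval of −0.20 to 0.10. The other probe set of IRF1 showed −0.04 ± 0.11 and was not called either.

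IRF3 and IRF7 are the factors that the kinases TBK1 and IKBKE phosphorylate to switch on type I interferon genes. IRF3 had log2 values of 8.63, 8.64, 8.64 and 8.67 with estradiol and 8.62, 8.62, 8.61 and 8.63 with vehicle, the narrowest spread of the 8 genes. Its difference of 0.03 ± 0.04 had an interval of −0.06 to 0.11 (SE, limma adjusted p = 0.719). IRF7, which interferon itself induces, had 5.88, 6.13, 5.95 and 5.98 with estradiol and 5.86, 5.90, 5.72 and 5.97 with vehicle. The groups overlapped, with a difference of 0.12 ± 0.07 (SE, limma adjusted p = 0.307) and an interval of −0.04 to 0.28.

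IRF5, which drives inflammatory cytokine genes downstream of Toll-like receptors, had values of 5.80, 5.95, 6.03 and 6.14 with estradiol and 5.90, 6.17, 6.15 and 6.04 with vehicle at the probe set with the highest mean. The groups overlapped at all 3 of its probe sets, which differed by −0.08, −0.03 and −0.12, and 0 of them were called. The interval of the first was −0.28 to 0.11.

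IRF4, the lymphoid factor needed for plasma cells, had 5.00, 5.04, 5.13 and 5.03 with estradiol and 5.18, 4.80, 5.17 and 5.32 with vehicle, about at the array medians. The difference was −0.07 ± 0.10 (SE, limma adjusted p = 0.744), with an interval of −0.30 to 0.16. Its other probe sets differed by 0.09 and −0.16, both below the array medians, so the 3 did not share a direction. At the probe set with −0.16 the groups did not overlap, with 2.41 to 2.53 for estradiol and 2.58 to 2.75 for vehicle, but it was not called over all probe sets (limma adjusted p = 0.129) and lay below the lower quartiles of the arrays, 3.67 to 3.74. Of the 13 probe sets 2 had groups that did not overlap, 15.4%, against 17.5% of all probe sets.

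IRF8, the relative that directs monocyte and dendritic cell development and is known for its low level in chronic myeloid leukaemia, had 5.56, 5.55, 5.33 and 5.44 with estradiol and 5.39, 5.41, 5.29 and 5.53 with vehicle. The groups overlapped, and the difference was 0.07 ± 0.07 (SE, limma adjusted p = 0.608) with an interval of −0.09 to 0.22. No detection calls were used, so whether IRF8 and the other members near the array medians lay above background is unknown.

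IRF9 had the largest difference among the 7 genes that were not called. Its values were 6.59, 6.45, 6.25 and 6.30 with estradiol, against 6.66, 6.73, 6.45 and 6.59 with vehicle. The groups overlapped, since the highest estradiol array exceeded the lowest vehicle array. The difference was −0.21 ± 0.09 (SE), with an unadjusted p of 0.0378 in limma and an adjusted p = 0.146, and its interval of −0.41 to −0.01 is not adjusted for the number of genes. IRF9 was called in 0 of 18 alternative analyses, with limma adjusted p from 0.0508 to 0.306.

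**Figure D3:**
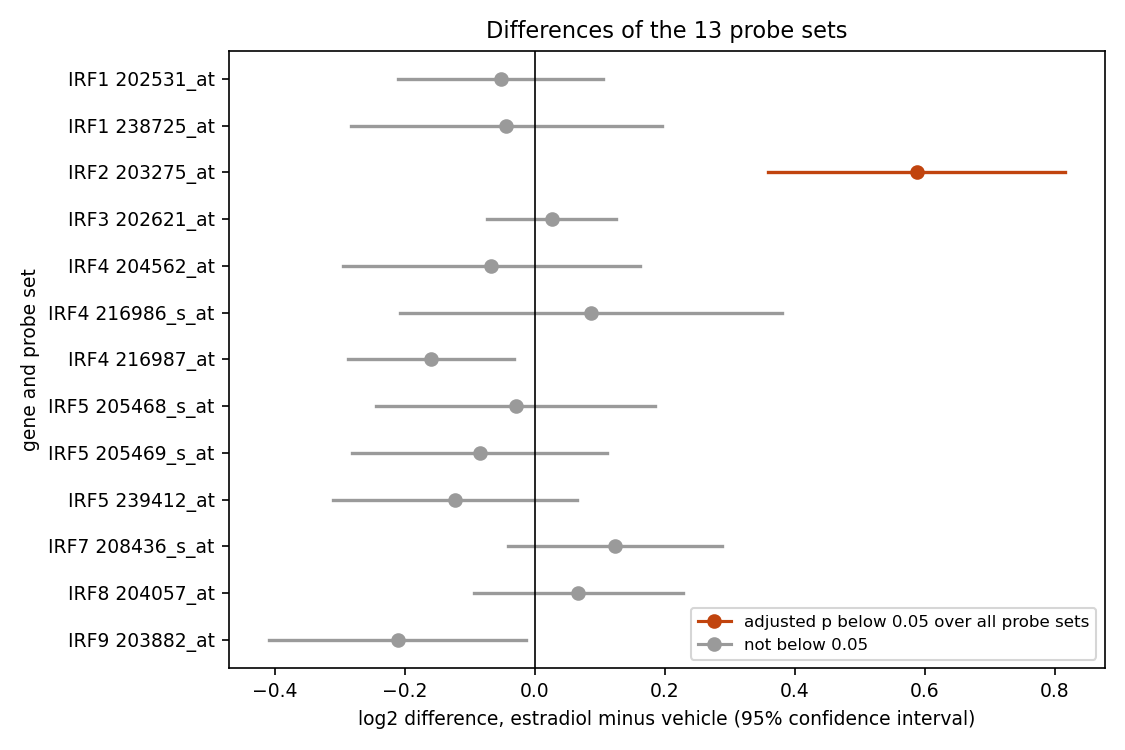
Log2 difference, estradiol minus vehicle, with its 95% confidence interval (horizontal axis) for each of the 13 probe sets. IRF2 at 0.59 is the single probe set called, and the other 12 lie between −0.21 and 0.12.

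The genes around these factors were read in 7 lists that hold 117 genes, of which 110 were measured. The remaining genes were not analysed here. In all, 15 genes rose and 10 fell, 22.7% against 17.9% of all genes, and the median difference was −0.03, as over all genes. The lists describe the pathway and were not tested as sets. The share of 17.9% is over all genes, dim ones included. Of the 15 partners and cofactors and the 13 receptor and JAK-STAT genes, 0 lay below the array medians. With only genes above the median level kept, 4276 were called, against 3538 with all 19775 genes. More calls among fewer genes make the share called among these brighter genes larger than 17.9%. How far expression level bears on the shares called in the lists was not tested.

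Partners and cofactors of the IRF proteins changed in both directions. Of 15 measured genes 6 rose, 3 fell and 6 were not called. That is 60% called, against 17.9% of all genes, dim ones included, with a list median of 0.00. The largest rises were those of IRF2BP2 and IRF2BPL, relatives in a family of zinc finger and RING proteins, the first of which is known as a corepressor that binds IRF2. IRF2BP2 ranged from 11.33 to 11.43 with estradiol, against 9.89 to 10.15 with vehicle, a 2.57-fold rise (log2 difference 1.36 ± 0.06 SE, limma adjusted p = 7.96e-07). It rose on 4 of 6 probe sets, by 1.06 to 1.45, while the other 2 showed −0.09 and 0.03 at log2 levels below the array medians. IRF2BPL ranged from 10.47 to 10.59 with estradiol, against 9.16 to 9.33 with vehicle, 2.43-fold higher on its 1 probe set. IRF2, IRF2BP2 and IRF2BPL were each higher on all 4 estradiol arrays than on any vehicle array. Such a separation was found for 24.1% of the 19775 genes. These genes were named for their call or their large rises, so the separation follows largely from that choice. Whether their rises are linked was not tested. SPI1, the DNA-binding partner of IRF4 and IRF8, rose by 0.39 ± 0.05, and ETV6, an ETS repressor that binds IRF8, by 0.46 ± 0.09. The 5 probe sets of ETV6 ran from 0.18 to 0.73, and 2 of them were called. The acetyltransferases EP300 and CREBBP, coactivators of IRF3, rose by 0.36 and 0.26. The 2 probe sets of EP300 showed 0.35 and 0.36, and 1 of them was called. The 4 probe sets of CREBBP ran from −0.27 to 0.26, and its call was kept neither with their mean, 0.04, nor with the probe set of largest interquartile range. The falls were in IKZF1, the lymphoid factor Ikaros, at 1.5-fold lower (−0.59 ± 0.04, called on 4 of 9 probe sets), BATF, which pairs with IRF4 in T cells, at 1.42-fold lower (−0.50 ± 0.08), and BATF3, which acts with IRF8 in dendritic cells, at −0.29 ± 0.04. SPI1, ETV6, EP300, CREBBP and BATF3 were chosen for mention with their values known.

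Sensors, adaptors and kinases that activate IRF3, IRF5 and IRF7 changed in both directions. Of 17 measured genes 2 rose, 2 fell and 13 were not called, 23.5% called against 17.9% of all genes, with a median of 0.02. STING1, the adaptor that responds to cytosolic DNA by recruiting TBK1, ranged from 7.89 to 7.94 with estradiol and from 7.34 to 7.62 with vehicle, 1.38-fold higher, and rose on both of its probe sets. The kinase IKBKE differed by 0.26 ± 0.08, and MYD88 and IRAK1, the adaptor and kinase of Toll-like receptors, by −0.20 ± 0.05 and −0.21 ± 0.05. Those 3 calls were unstable. Dropping estradiol replicate 2, 3 or 4, or vehicle replicate 1, 3 or 4, ended the call of IKBKE (limma adjusted p from 0.0795 to 0.118), and that of MYD88 ended whenever any array other than vehicle replicate 2 was dropped (0.0572 to 0.0908). IRAK1 lost it without estradiol replicate 3 or 4 or vehicle replicate 3 (0.0658 to 0.0700).

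All 9 interferon genes measured, IFNB1 and IFNG among them, lay below the array medians, 5 of them below the lower quartiles, and 0 were called by limma, with 1 at an unadjusted p below 0.05. That 1 was IFNK, the keratinocyte interferon, at −0.17 ± 0.06 (SE, limma adjusted p = 0.0825). Whether these genes lay above background is unknown.

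Receptors and JAK-STAT genes included the larger rises of the signalling lists. Of 13 measured genes 4 rose, 1 fell and 8 were not called. That is 38.5% called, against 17.9% of all genes, dim ones included, with a median of 0.02. SOCS1, the feedback inhibitor of JAK kinases, ranged from 7.79 to 8.04 with estradiol and from 6.65 to 6.97 with vehicle, 2.10-fold higher, called on 2 of 4 probe sets while the other 2 showed −0.02 and 0.04. With the mean of its probe sets the SOCS1 rise was 0.42. JAK2, a kinase of the interferon gamma receptor, ranged from 7.81 to 7.87 with estradiol and from 7.03 to 7.18 with vehicle, 1.68-fold higher. IFNGR1, the ligand-binding chain of that receptor, ranged from 9.44 to 9.50 with estradiol and from 8.64 to 8.85 with vehicle, 1.64-fold higher. JAK2 and IFNGR1 were each called on 2 of 3 probe sets, and the third differed by 0.38 and 0.45. JAK1 and IFNGR2 differed by −0.03 and 0.09 and were not called. IL10RB, a shared chain of the interferon lambda receptor, rose by 0.29 ± 0.06, and IFNAR1, a chain of the type I receptor, fell by 0.20. The 4 probe sets of IFNAR1 ran from −0.25 to −0.07, and 1 of them was called. Its call was kept neither with the mean of the 4 nor with the probe set of largest interquartile range.

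**Figure D4:**
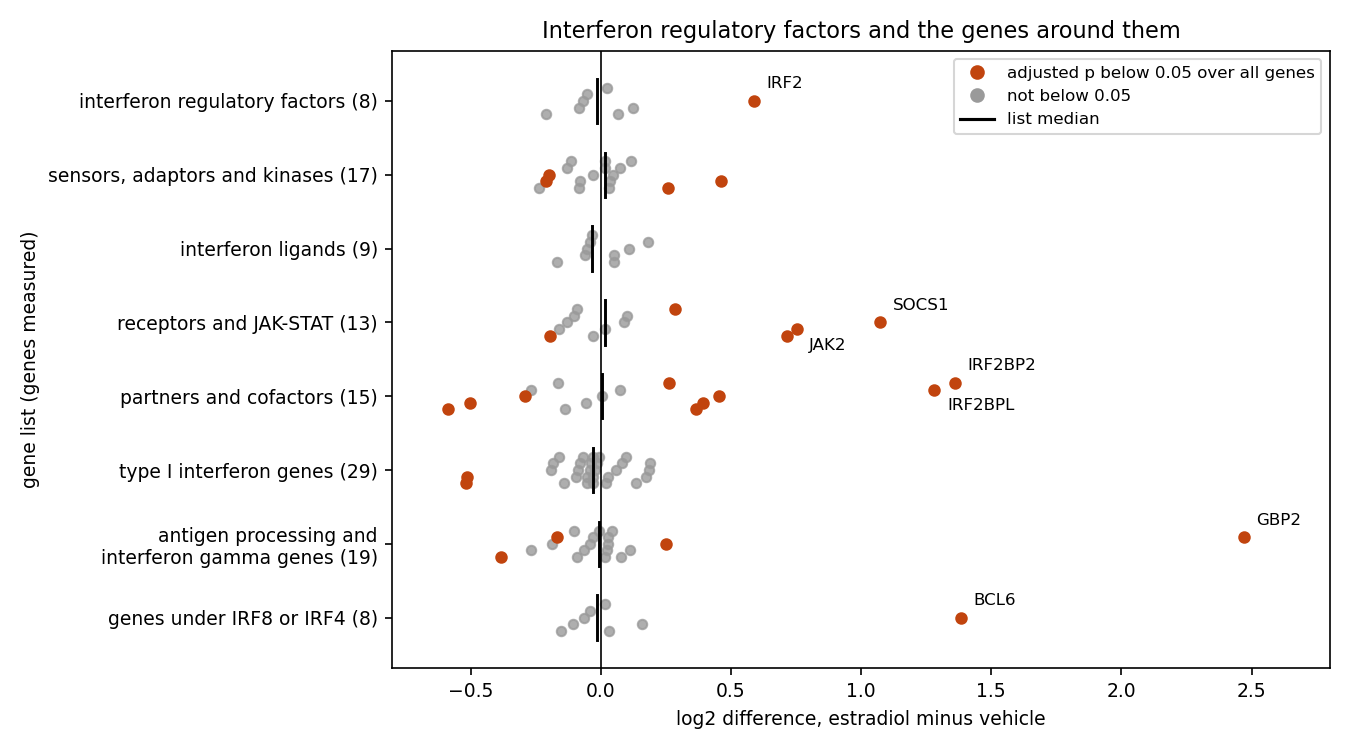
Log2 difference, estradiol minus vehicle (horizontal axis), of the 8 interferon regulatory factors and of 7 lists of genes around them, 1 point per gene, with the median of each list as a line. Medians lie near 0 in every list, and the points far to the right are GBP2, BCL6, IRF2BP2, IRF2BPL and SOCS1.

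Genes induced by type I interferon through IRF9 showed 0 rises and 2 falls among 29 measured. That is 6.90% called, against 17.9% of all genes, with a median of −0.03. CMPK2, a mitochondrial nucleotide kinase, ranged from 8.95 to 9.01 with estradiol and from 9.38 to 9.55 with vehicle, 1.43-fold lower. RSAD2, the antiviral protein viperin, was 1.43-fold lower, with overlapping ranges of 5.09 to 5.68 for estradiol and 5.62 to 5.99 for vehicle. Dropping estradiol replicate 2 or 4, or vehicle replicate 1, 3 or 4, ended the RSAD2 call (limma adjusted p from 0.0523 to 0.0571). ISG15, a ubiquitin-like protein used as a common readout of interferon action, differed by −0.02 ± 0.07, and MX1 by −0.01 ± 0.12. Of the 29 genes 16 lay below the array medians.

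Antigen processing and interferon gamma genes that IRF1 is known to drive held the largest change of the 7 lists. Of 19 measured genes 2 rose, 2 fell and 15 were not called. That is 21.1% called, against 17.9% of all genes, with a median of −0.01. GBP2, an interferon-induced guanylate-binding protein, ranged from 8.13 to 8.25 with estradiol, against 5.52 to 5.93 with vehicle, 5.54-fold higher (log2 difference 2.47 ± 0.09 SE), and was called on its other probe set too (3.48), where the vehicle mean of 3.76 lay near the lower quartiles and was not shown to be above background. Its relative GBP1 differed by 0.03 ± 0.08. HLA-E, a class I molecule read by natural killer cells, rose by 0.25 ± 0.04 and TAP2, a chain of the peptide transporter, fell by 0.38. Each was called on 1 of its probe sets. The 3 of HLA-E ran from 0.08 to 0.25 and the 4 of TAP2 from −0.38 to −0.05. The HLA-E probes can pick up other class I genes, which leaves that rise uncertain. PSMB10, an immunoproteasome subunit, fell by 0.17, a call that ended whenever any array other than vehicle replicate 3 was dropped (limma adjusted p from 0.0585 to 0.102). TAP1, B2M and PSMB9 differed by −0.09, −0.01 and −0.27 and were not called, though PSMB9 was without estradiol replicate 1 (limma adjusted p = 0.0483).

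Of 8 measured genes under IRF8 or IRF4 in myeloid and B cells, 1 rose, 12.5%, against 17.9% of all genes called. The list median was −0.01. BCL6, a repressor of germinal centre B cells, ranged from 6.42 to 6.55 with estradiol, against 4.96 to 5.24 with vehicle, 2.61-fold higher. It was called on 1 of 3 probe sets, and the others showed −0.10 and 0.32. CYBB, the phagocyte oxidase subunit, differed by −0.15 ± 0.08, KLF4 by 0.16 ± 0.11 and PRDM1, the plasma cell factor, by 0.03 ± 0.09.

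**Figure D5:**
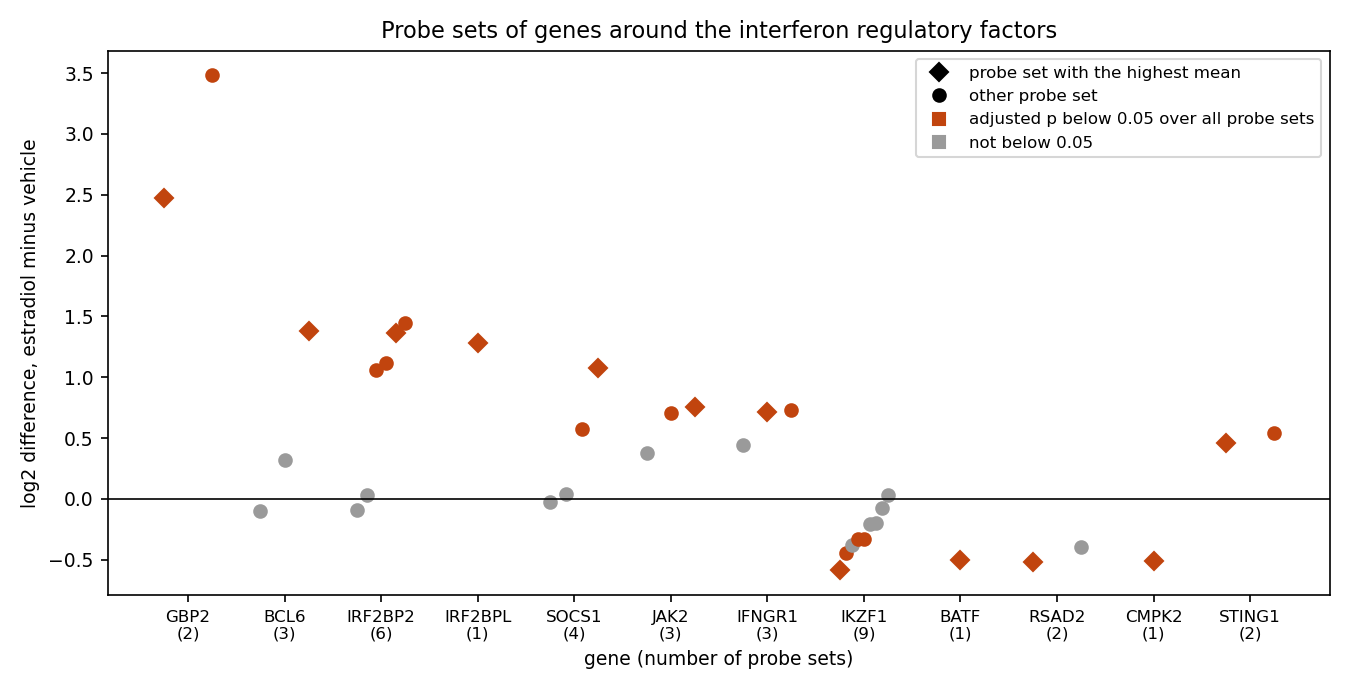
Log2 difference, estradiol minus vehicle (vertical axis), of every probe set of 12 genes around the interferon regulatory factors, with the probe set of highest mean as a diamond. Both GBP2 probe sets and 4 of 6 IRF2BP2 probe sets rise, while BCL6 rises on 1 of 3.

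The 7 measured markers of the red cell lineage lay above the array medians in both groups. The lowest was EPOR, at 8.40 with estradiol and 8.54 with vehicle, and HBE1 stood at 13.34 with estradiol and 13.51 with vehicle. GATA1 and KLF1, erythroid transcription factors, fell by 0.89 and 0.71. HBE1 fell by 0.17 on 1 of its 2 probe sets, the other showing 0.02, and was not called with their mean (limma adjusted p = 0.351) or with medians centred. HBZ, EPOR, TAL1 and TFRC were not called, at −0.04, −0.15, 0.08 and 0.08. The 5 probe sets of EPOR ran from −0.46 to −0.11, however, and 3 of them were called lower. With their mean EPOR was called too, at −0.26 (limma adjusted p = 0.00177). The summed log2 level of the 7 red cell markers ran from 77.2 to 77.4 with estradiol and from 78.8 to 79.3 with vehicle. Whether this bears on IRF2 was not tested. Of 19 markers of T, NK and B cells and of monocytes and macrophages, 0 were called by limma and 0 had an unadjusted p below 0.05. Below the array medians lay 11 of them and above the medians 7, the highest being CD3D at 7.92 with estradiol and 7.99 with vehicle. A level above the medians thus does not by itself mark a cell type. The summed log2 level of the 7 monocyte and macrophage markers ran from 29.8 to 31.2 with estradiol and from 30.8 to 31.4 with vehicle. Precision is limited by the number of arrays, 4 in each group.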

How the data were processed

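RNA of 8 K562 samples was measured, 1 array each. The authors deposited log2 values; the submitters' processing notes name RMA, without a version. RMA brings arrays towards a common distribution, which can mask a shift of most genes at once, and it compresses differences of dim genes. The deposited arrays were not identical in distribution, with medians of 4.97 to 5.08. The sources used here do not give the chip definition. Probe sets were named from the platform annotation, in which 41091 listed 1 symbol, 1801 several and 11721 none, and 62 were controls; symbols were checked through the gene identifier for 41037, and 0 changed.

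Each gene was represented by its brightest probe set, by the mean of 8 arrays. All 19775 genes were fitted with limma 3.58.1 (lmFit, eBayes, no trend, no block) in R 4.3.3 (two-sided, estradiol minus vehicle), and separately all 54613 probe sets without controls, each with its own Benjamini-Hochberg adjustment and no filter on dim genes. Errors of levels are SDs over 4 arrays. The fit was tested on simulated data in which 200 of 19775 genes changed, fewer than were called here. It called 14% of the genes given a log2 change of 0.25, 82% at 0.5 and 100% at 1. Changes of about 0.25 were thus mostly missed there. Figures used matplotlib 3.10.9.

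The members, lists and tests were chosen with earlier results of these data known. The rule for names took all members, up to 4 called genes with the largest change from each list (or that with the smallest p), and the 3 nearest genes to the called member with the largest rise; 0 members were called lower. Genes named beyond that rule were chosen after their values were seen. Alternatives were a replicate block, other scalings, filters on dim genes, other choices of probe set, a variance trend, array weights, each array left out and a stricter threshold.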

Additional observations from a re-analysis of the deposited data

Results flagged for a closer look

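In 66 groups of 4 arrays, those of the 13 probe sets and of 20 named genes of the lists, 4 held an array set apart from the other 3 by more than Dixon's 95% critical value, where chance gives about 1 in 20. IRF1 was 5.85 on estradiol replicate 1, against 6.09 to 6.13 on the other estradiol arrays. IRF1 was 6.17 on vehicle replicate 3, with the other vehicle arrays all at 6.08. BATF was 6.64 on estradiol replicate 4, against 6.90 to 6.94. SOCS1 was 8.04 on estradiol replicate 1, against 7.79 to 7.82.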

How the results depend on the processing

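IRF2 was higher with estradiol and called in all 17 alternatives that tested it, at log2 differences of 0.49 to 0.66 (limma adjusted p from 0.000293 to 0.0257). The filter that kept genes above the median level dropped IRF2 itself, so 0 members were called there, and 1 was called in every other alternative. None of the other 7 genes was called in any alternative, with the smallest limma adjusted p at 0.0508 for IRF9 without 1 array. Directions of differences near 0 turned for IRF3, at −0.0121 with a second quantile normalization, and for IRF4, at 0.0863 with the probe set of largest interquartile range. Leaving out 1 array at a time gave −0.0796 to 0.0126 for IRF1 and −0.17 to 0.00116 for IRF4, and 2732 to 3551 genes called, against 3538 with all arrays. At an adjusted p below 0.01, 2179 genes and IRF2 were called. With the replicate number as a block, 2598 genes were called, and IRF2 stayed called at 0.59 (limma adjusted p = 0.0257). Arrays of the same number did not deviate together in all pairs (correlations of −0.21 to 0.11), so the numbers were not taken to pair the arrays. Counts called were 1 to 6 for sensors, adaptors and kinases (4 in the analysis reported, 1 with the block), 1 to 3 for type I interferon genes (2) and 0 to 1 for genes under IRF8 or IRF4 (1), and in the other 4 lists stayed within 1.5 times.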
